A study of Mus musculus with 2 samples.

Results

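Collagens other than type IV were examined in the embryonic mouse kidney. The members were the protein-coding genes whose symbols read Col, a number, the letter a and a number, after gene identifiers had been matched to GENCODE symbols and the 6 chains of type IV had been set aside. This gave 38 genes of the 43346 in the tables, of which 21474 were protein-coding. They were placed in 8 classes: 11 fibrillar chains, 9 fibril-associated chains (FACIT), 6 beaded filament chains of type VI, 4 transmembrane chains, 3 network chains, 2 multiplexins, the 1 anchoring fibril chain Col7a1, and Col26a1 and Col28a1, grouped as other. The libraries were total RNA-seq of B6NCrl mouse kidney at embryonic day 14.5, with no mutation or treatment named, labelled biological replicates 1 and 2 of 1 group, with no second condition. Each was made from 10 ng of RNA longer than 200 nt, extracted from 2 kidneys of 1 pup. The pups were taken on different days but carry the same donor label, so how far they are independent animals is known only from the word biological replicate. The sex label reads pooled for each sample although its material is described as that of a single pup. Whole kidney mixes epithelial, stromal, vascular and blood cells, so fewer cells of a type and less RNA per cell cannot be told apart.

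Collagens are secreted or membrane proteins in which 3 chains wind into a triple helix, and each chain needs a glycine to open every triplet of residues in the helix (the Gly-X-Y repeat). Fibrillar collagens form the tension-bearing fibres of interstitial matrix, FACIT collagens sit on the surface of those fibres, and beaded filament, network and multiplexin collagens link fibres, cells and basement membranes. In the developing kidney the stroma between the nephrons is the main site of interstitial fibrillar collagen, while multiplexins lie in or next to basement membranes.

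The repeat was visible in the exons of the most abundant members. The exons below are, for each of Col3a1, Col1a1 and Col1a2, the first coding exon of 54 bases made of whole Gly-X-Y triplets, and they are shown because that exon size recurs through the fibrillar genes. The sequences are GENCODE release M21 on GRCm38, 5′ to 3′ on the plus strand, with glycine codons in capitals. They lie at chr1:45325360-45325413 (exon 6 of Col3a1-201), chr11:94939904-94939957 (exon 8 of Col1a1-201) and chr6:4515481-4515534 (exon 8 of Col1a2-201).
Col3a1: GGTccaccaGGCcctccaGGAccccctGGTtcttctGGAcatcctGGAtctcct
Col1a1: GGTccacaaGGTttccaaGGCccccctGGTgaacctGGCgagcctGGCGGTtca
Col1a2: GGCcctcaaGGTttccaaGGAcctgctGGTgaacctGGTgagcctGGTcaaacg
Each exon encodes 6 triplets. The seventh glycine codon of the Col1a1 exon is in the X position of its last triplet.

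Of the 625 inner coding exons of the 11 fibrillar genes, 305 (48.8%) were 54 bases long, against 26.7% in FACIT genes, 9.66% in transmembrane genes and 8.37% in beaded filament genes. FACIT genes were not alike: the share ran from 6.35% in Col12a1 to 46.7% in Col9a1, Col9a2 and Col9a3. In single fibrillar genes it ran from 42.9% in Col1a1 to 56.9% in Col24a1. Among 21317 genes that are not collagens the share was 0.445% of 155281 inner coding exons. The 3 network genes carry their coding sequence in so few exons that they have no inner coding exon. The longest unbroken Gly-X-Y run, read from the translated coding sequence of the most abundant complete transcript, was 344 triplets in Col3a1, 339 in Col1a2 and 338 in Col1a1. It was 216 to 344 triplets in fibrillar members, 59 to 60 in network members, 37 to 87 in beaded filament members and 30 in both multiplexins. Runs of at least 4 triplets covered a median of 59.6% of the protein over the 38 members, the least being 8.12% in Col12a1 and the most 86.0% in Col9a1.

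The gene tables held 29718428 expected counts in replicate 1 and 29204212 in replicate 2, and the members took 0.445% and 0.344% of the counts on genes. Levels are in TPM, transcript abundance corrected for length and scaled to a fixed sum per library. All 6 kidney markers were present in both libraries: Tcf21 stood at 259 TPM in replicate 1 and 289 in replicate 2, Wt1 at 129 and 81.5 TPM, and Ret lowest at 11.1 and 5.07 TPM. All 5 stromal markers were present and did not differ in one direction: Meis1 had 86.6 TPM in replicate 1 and 41.3 in replicate 2, Pdgfra 41.4 and 16.2 TPM and Pdgfrb 32.8 and 17.8 TPM, but Dcn had 81.9 and 83.8 TPM and Lum 38.98 and 41.4 TPM. Of 4 markers of stratified epithelium only Krt10 reached 1 TPM in both libraries (7.42 and 9.04 TPM) and Dsg3 had no count in either, while 0 of 4 bone and 0 of 4 skeletal muscle markers reached 1 TPM in both. Of 3 tendon markers 2 did, Scx at 14.4 and 17.5 TPM and Mkx at 2.39 and 1.42 TPM, and Tnmd was at 0.00 and 0.04 TPM.

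26 of the 38 members (68.4%) reached 1 TPM in both libraries, beside 59.0% of all protein-coding genes. The median level of those 26 was 14.7 TPM, beside 18.3 TPM over the 12669 protein-coding genes that reached the same floor. The 38 members summed to 1398 TPM in replicate 1 and 971 TPM in replicate 2, a mean of 1185 ± 302 TPM (SD, n = 2). Among the detected members 15 averaged at least 10 TPM, 3 of them at least 100 TPM, and 11 lay under 10 TPM. The other 12 members did not reach 1 TPM in both libraries, 11 of them in neither.

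**Figure D1:**
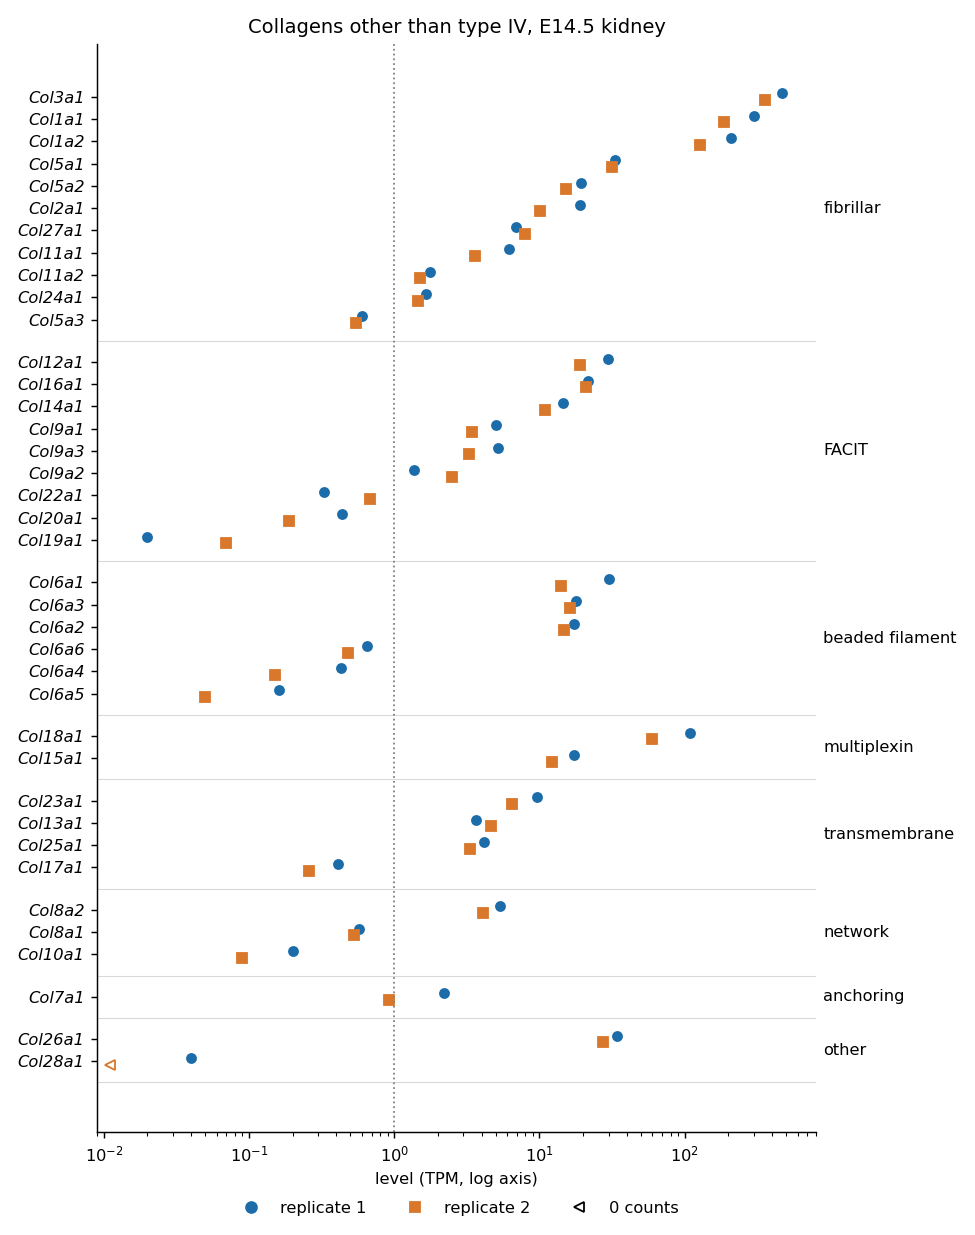
Level of each of the 38 genes in TPM (log axis), by class, with circles for replicate 1 and squares for replicate 2; the dotted line is the 1 TPM detection floor and an open triangle marks 0 counts. Col3a1, Col1a1 and Col1a2 stood highest in both libraries, and Col28a1 had 0 counts in replicate 2.

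Fibrillar chains made up most of the summed level of the 38 members. They held 76.3% of the summed TPM in replicate 1 and 76.6% in replicate 2, and 10 of the 11 were detected. Multiplexins held 9.04% and 7.44%, FACIT chains 5.61% and 6.29%, beaded filament chains 4.76% and 4.73%, and Col26a1 with Col28a1 2.45% and 2.84%. Transmembrane chains held 1.28% and 1.51%, network chains 0.438% and 0.487%, and Col7a1 0.157% and 0.0947%. By expected counts, which are not corrected for length, the fibrillar share was 78.9% and 80.3%.

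**Figure D2:**
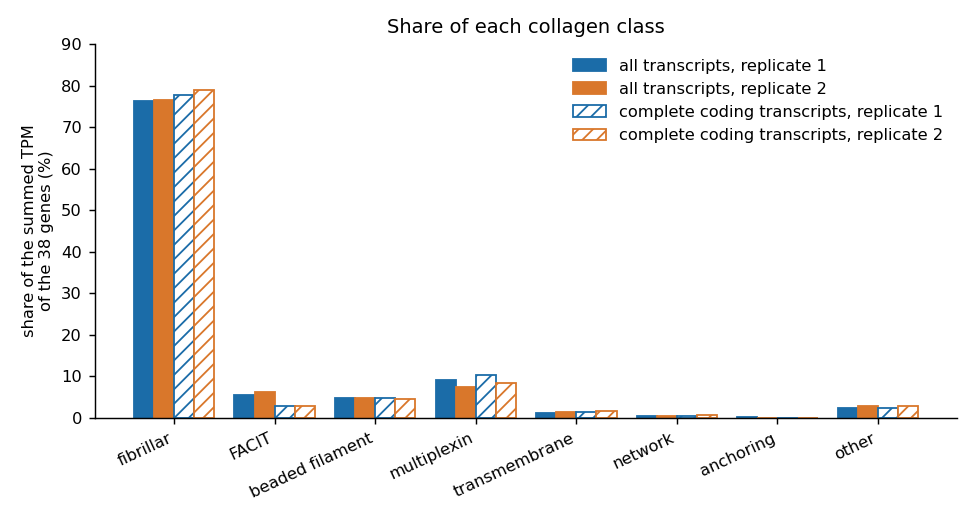
Share of the summed TPM of the 38 genes held by each class in percent; filled bars use all transcripts of a gene, hatched bars complete coding transcripts, blue replicate 1 and orange replicate 2. The fibrillar share lay between 76.3% and 78.9% in the 4 bars, and the FACIT share was 5.61% and 6.29% over all transcripts and 2.87% and 2.87% over complete ones.

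Col3a1 (ENSMUSG00000026043.14), the single chain of type III collagen, had the highest gene level, 469 TPM in replicate 1 and 358 TPM in replicate 2, from 34604 and 27296 counts. Col1a1 (ENSMUSG00000001506.10), which supplies a pair of chains to each type I molecule, stood at 299 TPM and 185 TPM. Col1a2 (ENSMUSG00000029661.12), which supplies the remaining chain, stood at 209.95 TPM and 128 TPM. All 3 were higher in replicate 1, and together they held 69.9% and 69.2% of the summed TPM of the 38 members, type IV chains left out. They ranked 303, 522 and 797 among the 21474 protein-coding genes. On GRCm38 Col3a1 covers chromosome 1, 45311538 to 45349706, Col1a1 chromosome 11, 94936224 to 94953042 and Col1a2 chromosome 6, 4504814 to 4541544. Nearly all of the level of both type I chains lay on 1 transcript each: Col1a1-201 held 98.1% and 98.7% of its gene's TPM, and Col1a2-201 held 94.9% and 95.1%.

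Type V collagen starts fibrils and limits their width. Its chain genes Col5a1 and Col5a2 stood at 33.4 TPM in replicate 1 and 31.4 in replicate 2, and at 19.2 and 15.3 TPM, while Col5a3 stayed below 1 TPM at 0.60 and 0.55 TPM. Col5a1-201 held 99.5% and 100% of the Col5a1 TPM. Col5a2 lies 24614 bases from Col3a1 on chromosome 1, on the opposite strand. Col27a1, a fibrillar chain with a shorter helix, had 6.91 TPM in replicate 1 and 7.98 in replicate 2, and Col24a1, its closest relative in helix length among the fibrillar members (216 triplets, beside 217), had 1.66 and 1.46 TPM.

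Type II, IX and XI chains are the classical fibril set of cartilage. Col2a1, the type II chain, stood at 18.97 TPM in replicate 1 and 10.1 TPM in replicate 2. Col11a1 and Col11a2, which nucleate type II fibrils, stood at 6.14 and 3.59 TPM and at 1.77 and 1.5 TPM. Full-length Col11a1-201 led its gene with 63.2% in replicate 1 and 81.2% in replicate 2, and Col11a1-204, annotated for nonsense-mediated decay, held 36.4% and 18.2%. The 3 type IX chains, which decorate those fibrils, were low: Col9a1 at 5.02 TPM in replicate 1 and 3.45 in replicate 2, Col9a3 at 5.20 and 3.26 TPM, and Col9a2 at 1.36 and 2.49 TPM. Of 7 cartilage markers, 2 reached 1 TPM in both libraries, Hapln1 (link protein) at 10.7 and 7.28 TPM and Cnmd at 1.44 and 1.81 TPM. The cartilage proteoglycan core Acan stood at 0.21 TPM in replicate 1 and 0.06 in replicate 2, Matn1 at 0.32 and 0.33 TPM, and Ucma had 0 counts in both. The 7 markers summed to 12.9 and 9.81 TPM. Col10a1, the chain of hypertrophic cartilage, had 12 counts in replicate 1 (exact Poisson 95% interval 6.20 to 20.96) and 6 in replicate 2 (2.20 to 13.1). Such intervals cover counting error only.

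Col2a1 is known for a splice choice: the form that keeps exon 2 encodes a cysteine-rich domain ahead of the helix and is typical of precursor and non-cartilage tissues, and the form that skips it is typical of differentiated cartilage. Exon 2 is shown because the forms differ by it. It covers chr15:98000403-98000606 on the minus strand of GRCm38, is 204 bases long, and is given 5′ to 3′ with its 10 in-frame cysteine codons in capitals.
Col2a1 exon 2: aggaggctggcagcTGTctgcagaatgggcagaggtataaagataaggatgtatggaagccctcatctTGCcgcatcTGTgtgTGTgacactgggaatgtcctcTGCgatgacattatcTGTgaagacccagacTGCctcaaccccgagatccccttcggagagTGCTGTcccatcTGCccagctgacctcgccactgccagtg
Col2a1-201, which holds this exon, had 11 TPM in replicate 1 and 8.86 TPM in replicate 2. Col2a1-202, which lacks it, had 6.18 TPM and 0.24 TPM. The form with exon 2 was therefore 64.0% and 97.4% of the sum of both, 80.7% ± 23.6 (SD, n = 2). It was the larger form in both libraries, and the form without exon 2 differed more between them.

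Among FACIT chains, Col12a1 and Col14a1, which sit on type I fibrils, stood at 29.9 TPM in replicate 1 and 19.0 in replicate 2, and at 14.6 and 10.99 TPM. Col16a1, which joins several matrix networks, had 21.6 and 20.96 TPM over all transcripts but 4.31 and 2.43 TPM on complete coding transcripts, defined further on, and its non-coding transcript Col16a1-207 had 8.84 and 11.3 TPM. Below 1 TPM lay Col22a1 (0.33 and 0.68 TPM), Col20a1 (0.44 and 0.19 TPM) and Col19a1 (0.02 and 0.07 TPM, from 2 and 7 counts). Col19a1 lies 9205 bases from Col9a1 on chromosome 1, transcribed from the opposite strand.

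Col9a1 has a start upstream that gives the long form of cartilage, with an added N-terminal domain, and a start within the gene that gives a short form. The short Col9a1-202 carried all 290 and 230 counts of the gene. The long Col9a1-201 had no count in either library. An observed count of 0 would still permit 3 counts, or 0.0412 TPM in replicate 1 and 0.0357 TPM in replicate 2. Counts here are estimates, and reads in exons of both forms do not tell them apart, so these values are not an upper limit. Both promoters are shown because reads were assigned to 1 start only (RefSeq, GRCm38.p6, 250 bases before to 50 after the start, 5′ to 3′ on the plus strand). Capitals mark matches, on either strand, to the TATA box as TATAAA, to the CCAAT box or to the GC box as GGGCGG. The long form's promoter is chr1:24177360-24177659 and the short form's is chr1:24194953-24195252.
Col9a1 long: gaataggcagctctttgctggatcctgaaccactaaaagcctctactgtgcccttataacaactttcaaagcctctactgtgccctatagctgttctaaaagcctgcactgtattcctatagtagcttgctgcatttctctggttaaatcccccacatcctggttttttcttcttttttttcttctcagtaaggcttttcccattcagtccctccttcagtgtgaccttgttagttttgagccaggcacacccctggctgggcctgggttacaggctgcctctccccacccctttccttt
Col9a1 short: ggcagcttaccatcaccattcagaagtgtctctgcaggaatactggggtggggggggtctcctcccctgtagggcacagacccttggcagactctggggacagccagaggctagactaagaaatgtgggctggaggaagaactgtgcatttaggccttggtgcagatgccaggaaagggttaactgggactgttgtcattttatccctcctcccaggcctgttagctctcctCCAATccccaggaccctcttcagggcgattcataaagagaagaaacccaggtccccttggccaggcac
The start with 0 counts held none of the 3 motifs and the other start held 1 CCAAT.

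Col18a1 (ENSMUSG00000001435.10), a multiplexin of basement membranes whose C-terminal fragment is endostatin, was the fourth highest member, at 109 TPM in replicate 1 and 59.95 TPM in replicate 2. The short form Col18a1-202, from the upstream start, made up 85.7% and 95.1% of its complete transcripts. The forms from the downstream start were lower: the middle form Col18a1-203 held 9.79% and 3.18% and the long form Col18a1-201 held 4.48% and 1.70%. The promoters of the upstream and downstream starts, chr10:77166481-77166780 and chr10:77113656-77113955, are given 5′ to 3′ on the minus strand with the same motifs in capitals.
Col18a1 upstream: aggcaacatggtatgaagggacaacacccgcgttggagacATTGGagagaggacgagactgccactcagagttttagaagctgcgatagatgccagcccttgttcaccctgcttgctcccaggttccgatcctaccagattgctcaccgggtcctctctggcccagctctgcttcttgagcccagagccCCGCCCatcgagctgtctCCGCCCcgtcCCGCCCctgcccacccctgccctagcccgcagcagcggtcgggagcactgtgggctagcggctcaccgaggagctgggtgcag
Col18a1 downstream: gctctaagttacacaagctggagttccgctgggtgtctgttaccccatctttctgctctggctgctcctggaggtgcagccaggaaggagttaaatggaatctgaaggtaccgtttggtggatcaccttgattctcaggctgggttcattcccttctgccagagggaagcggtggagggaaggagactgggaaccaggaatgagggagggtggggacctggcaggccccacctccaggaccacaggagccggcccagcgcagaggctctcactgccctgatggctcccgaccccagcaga
The more used upstream start held 3 matches to GGGCGG and 1 to CCAAT, and the downstream start held none of the motifs. Over 33 promoters of 30 member genes, 19 (57.6%) held GGGCGG, beside 35.7% of all 32851 mouse promoters of that length, expressed or not. CCAAT was in 30.3% and 37.4%, and TATAAA in 15.2% and 13.6%. The promoter set held none for Col1a1, Col2a1, Col5a2, Col9a3, Col12a1, Col14a1, Col22a1 and Col26a1. A link between these motifs and level or start use was not tested. Col15a1, the other multiplexin, stood at 17.3 TPM in replicate 1 and 12.3 TPM in replicate 2.

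Type VI collagen forms beaded filaments from 3 different chains. Col6a1 (ENSMUSG00000001119.7) stood at 29.98 TPM in replicate 1 and 14.1 TPM in replicate 2, Col6a2 at 17.3 and 14.8 TPM, and Col6a3 at 18 and 16.3 TPM. Col6a1 and Col6a2 lie 85161 bases apart on chromosome 10 on the same strand, and Col6a1 differed far more between the libraries than its neighbour. The remaining chain genes Col6a4, Col6a5 and Col6a6, a cluster on chromosome 9, all stayed below 1 TPM, with 10 to 109.7 counts each. Some counts of Col6a5 and Col6a6 were not whole, as also for Col5a1 and Col9a3, so a few reads were shared with other features.

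Among membrane-spanning chains, Col23a1 led at 9.70 TPM in replicate 1 and 6.47 in replicate 2. Col25a1 stood at 4.16 and 3.35 TPM and Col13a1 at 3.68 and 4.61 TPM. The leading Col13a1 transcript differed between the libraries: Col13a1-205 held 37.2% in replicate 1 and 8.18% in replicate 2, and Col13a1-204, also complete, held 26.97% and 38.8%, from 176 and 209 counts on the gene. Col17a1, the hemidesmosome collagen of skin epithelium, had 0.41 and 0.26 TPM. Col7a1, which anchors skin epithelium to dermis, had 2.19 TPM in replicate 1 and 0.92 TPM in replicate 2 and reached the floor by gene level in replicate 1 alone. Of the replicate 1 value 1.09 TPM came from 3.11 counts on Col7a1-207, a 245 nt retained-intron transcript, and complete transcripts gave 0.86 and 0.67 TPM, below the floor in both libraries. Of the network chains, Col8a2 had 5.36 and 4.11 TPM, and its partner Col8a1 had 0.57 and 0.53 TPM. Col26a1, a short collagen with an EMI domain, reached 34.2 TPM in replicate 1 and 27.6 TPM in replicate 2, by gene level above Col5a1 in replicate 1. On complete transcripts it had 27.4 and 21.1 TPM, below Col5a1 at 33.25 and 31.39 TPM. Col28a1 had 3 counts and 0 counts.

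Gene levels mixed full-length and short annotated transcripts, and for several members the short ones carried much of the TPM. Complete coding transcripts were taken as those with both ends of the coding sequence annotated and a coding sequence at least 50% as long as the longest of the gene. This measure was added after the data had been seen. Over the 26 detected members such transcripts held a median of 82.8% of the TPM in replicate 1 and 80.1% in replicate 2, but 95.8% and 93.5% of the expected counts, since a short transcript gains TPM for each read. Col1a1, Col1a2, Col5a1, Col5a2, Col6a1 and Col6a2 had 94.9% to 100% of their TPM on complete transcripts in both libraries. 5 detected members had less than 50% in both. By complete transcripts alone 24 members reached 1 TPM in both libraries. Col24a1 (1.03 and 0.49 TPM) and Col11a2 (1.51 and 0.97 TPM) then fell below the floor in replicate 2.

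Col3a1-205, 737 nt long and open at both ends of its coding sequence, took 33.7% of the Col3a1 TPM in replicate 1 and 41.7% in replicate 2 from 5.69% and 7.88% of its counts. On complete transcripts Col3a1 stood at 305 and 203 TPM, close to Col1a1 at 293 and 183 TPM. Col6a3-206, a 646 nt retained-intron transcript, took 50.3% and 66.7%, and complete Col6a3 stood at 6.84 and 4.10 TPM. Col12a1 was led by the retained-intron transcript Col12a1-206 in replicate 1 (39.3%, beside 18.2% in replicate 2) and by the incomplete Col12a1-204 in replicate 2 (31.95% in replicate 1 and 52.4% in replicate 2). Its complete form had 7.45 and 4.07 TPM. Complete transcripts of Col14a1 stood at 9.90 and 5.54 TPM, of Col15a1 at 8.13 and 3.78 TPM and of Col27a1 at 3.07 and 2.49 TPM. Of 17 members at 5 TPM or more in both libraries, 15 had the same leading transcript in both, the exceptions being Col12a1 and Col27a1. In 12 the leader was a complete coding transcript in both libraries. The other 5 were Col12a1, Col27a1, Col6a3, Col15a1 (led by Col15a1-203, 49.2% and 66.9%) and Col16a1 (led by the non-coding Col16a1-207, 40.9% and 53.99%).

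Transcripts other than complete ones with their midpoint in the 3′ part of a member differed in one direction between the libraries. Of transcripts that were not complete and held at least 5% of a detected member in both libraries, 10, from 10 genes, had their midpoint in the 3′ part of the gene's longest complete transcript, beyond 66.7% of its length. All 10 held a larger share in replicate 2, with a median difference of 17.6 percentage points. Among 1345 such transcripts of all other detected protein-coding genes 67.3% held a larger share in replicate 2, with a median difference of 2.62 points. Those genes were not matched to the members in length, and the difference between the libraries varied with length. At a mean of 1 TPM or more the median length was 4465 nt for members and 2253 nt for all genes. Whether other genes of like length differ as much was not examined. In the 5′ part, up to 33.3% of the length, 5 of 7 were larger in replicate 2, beside 53.3% of 4387 in other genes, and in the middle part 0 of 4, beside 52.0% of 2519. A further 2 transcripts in the 3′ part, Col9a2-202 and Col13a1-207, reached 5% in replicate 2 alone, which fixes their direction, so they were not counted. These transcripts come from the same 2 libraries, and some in the 5′ and middle parts share a gene, so they are not replicates, and the cause was not tested.

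**Figure D3:**
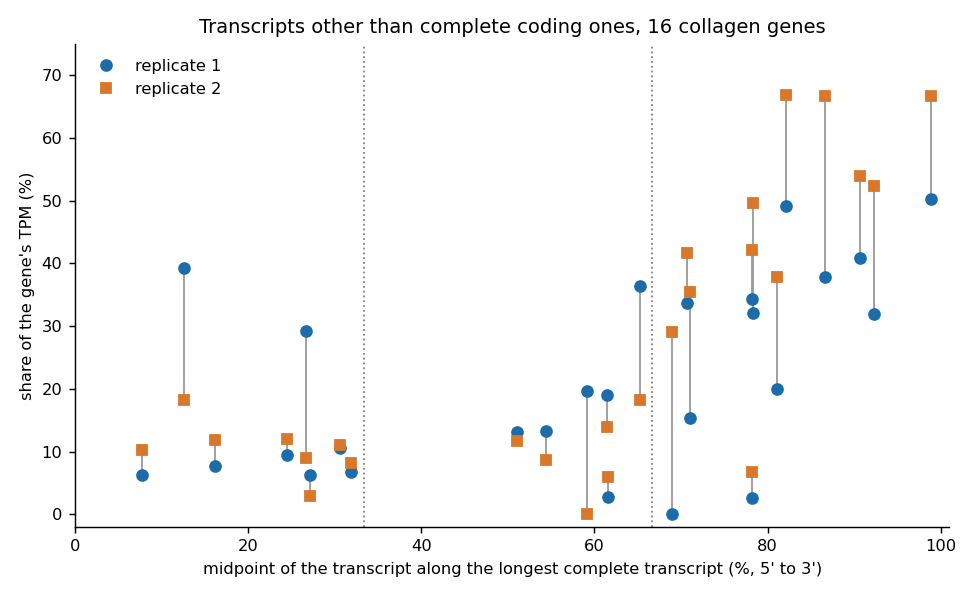
Share of the gene's TPM (percent) held by each of 26 transcripts other than complete coding ones, with 5% or more in either library, against the position of its midpoint along the gene's longest complete transcript (percent, 5′ to 3′), with circles for replicate 1, squares for replicate 2, a line joining the same transcript and dotted lines at 33.3% and 66.7%. In the 3′ part the 10 transcripts with 5% or more in both libraries have the square above the circle; 2 others passed 5% only in replicate 2.

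Ratios between chains of 1 molecule were compared as TPM. Col1a1 to Col1a2 was 1.42 in replicate 1 and 1.44 in replicate 2, the closest of the 9 ratios between libraries, and 1.47 and 1.499 on complete transcripts. Col5a1 to Col5a2 was 1.74 and 2.06. Col6a1 to Col6a2 was 1.73 and 0.953, on either side of 1, so the libraries do not fix which chain message is higher. Col3a1 to Col1a1, chains of different molecules, was 1.57 and 1.93 by gene and 1.04 and 1.11 on complete transcripts. Col6a3 to Col6a1 was 0.600 and 1.16 by gene and 0.228 and 0.292 on complete transcripts. Col11a1 to Col11a2 was 3.47 and 2.39, Col9a1 to Col9a2 was 3.69 and 1.39, Col9a3 to Col9a2 was 3.82 and 1.31, and Col8a2 to Col8a1 was 9.40 and 7.75.

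**Figure D4:**
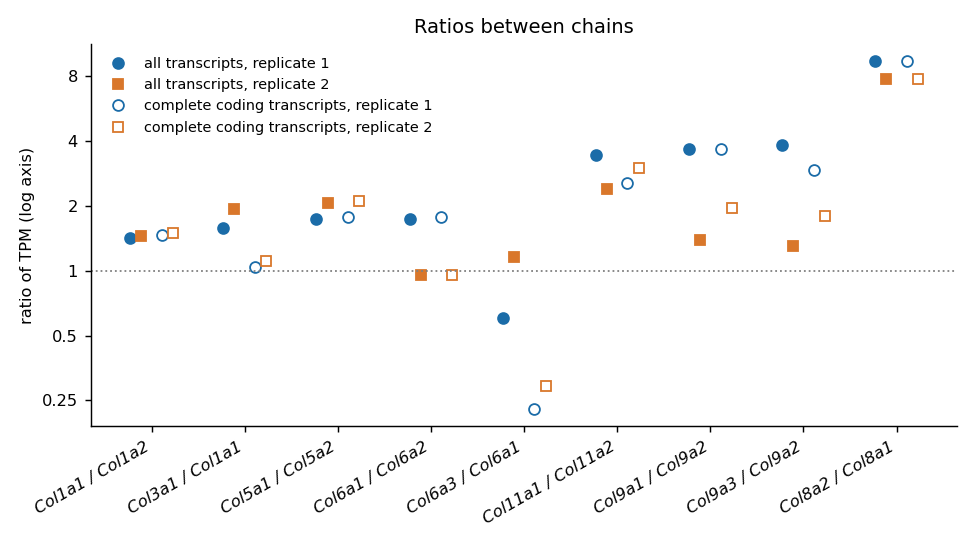
Ratio of TPM between chain genes (log axis), with filled symbols for all transcripts and open symbols for complete coding transcripts, circles for replicate 1 and squares for replicate 2. Col1a1 to Col1a2 lies between 1.42 and 1.499 in all 4 values, while Col6a3 to Col6a1 is 0.600 and 1.16 over all transcripts and 0.228 and 0.292 over complete ones.

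Most members were higher in replicate 1, as were most genes of their length. On log2((TPM + 1) ratio), replicate 1 over replicate 2, 24 of the 27 members with a mean of at least 1 TPM lay above 0, beside 73.0% of all 15075 genes at that level. Among the 26 members at 1 TPM or more in both libraries, which leaves out Col7a1, it was 23, beside 73.4% of 14329 genes. Col27a1, Col13a1 and Col9a2 lay below 0, at -0.18, -0.26 and -0.56. On complete transcripts Col27a1 (3.07 and 2.49 TPM) and Col13a1 (2.36 and 2.17 TPM) were higher in replicate 1. Col9a2 stayed higher in replicate 2, at 1.36 and 1.77 TPM. The median log2 ratio was 0.38 over the 27 members and 0.26 over the 15075 genes. Over the 2992 genes between 3297 and 5273 nt, the interquartile range of the members' lengths, it was 0.54. Less the median of genes in the same 1 of 20 length bins, the members' median was -0.14 and 9 of 27 lay above 0. By a size rule of 2-fold or more, applied to genes whose higher value was 5 TPM or more, 1 of 21 members stood apart, Col6a1 at 1.03, beside 5.56% of 11480 genes. Less its length bin Col6a1 was at 0.50, and 0 members stood apart, beside 2.29% of genes. At 1.5-fold it was 7 of 21 members, beside 27.1% of genes. Col18a1 at 0.85 and Col2a1 at 0.84 were next.

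**Figure D5:**
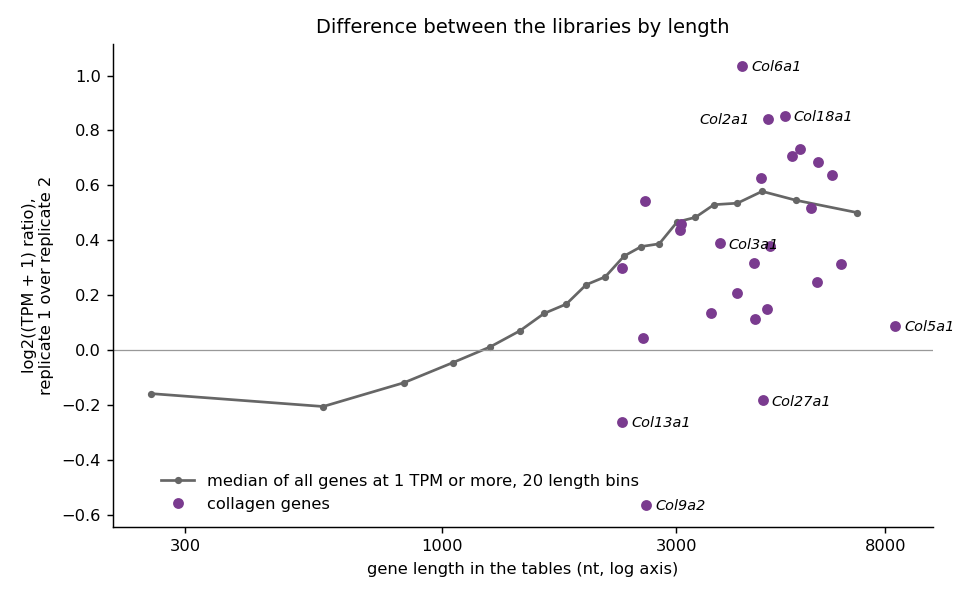
Difference between the libraries, log2((TPM + 1) ratio) of replicate 1 over replicate 2, against gene length (nt, log axis), for 27 collagen genes (points) and the medians of all genes in 20 length bins (line). Col6a1 is highest at 1.03, Col9a2 lowest at -0.56, and 18 of the 27 points lie below the median of their length bin.

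Collagen chains depend on a set of enzymes and chaperones, and these were abundant. Folding and modification genes had a median level of 27.6 TPM, and 19 of 20 were detected, beside the 59.0% of all protein-coding genes. P4hb, the shared subunit of prolyl 4-hydroxylase, stood at 583 TPM in replicate 1 and 447 in replicate 2, the cyclophilin Ppib at 454 and 489 TPM, the collagen chaperone Serpinh1 at 334 and 416 TPM, and Crtap at 99.7 and 86.0 TPM. P3h2 (7.45 and 3.44 TPM) and Colgalt2 (1.05 and 0.77 TPM) were lowest. Processing and crosslinking genes were lower, at a median of 2.01 TPM with 10 of 13 detected. The count depended on the floor and was 6 at 2 TPM in both libraries. Pcolce, which enhances removal of the C-propeptide, had 75.4 and 70.3 TPM, the C-proteinase Bmp1 39.0 and 30.6 TPM, and the crosslinking enzymes Loxl1 and Loxl2 20.3 and 20.1 TPM and 18.7 and 14.3 TPM. Tll1 had 0.31 and 0.14 TPM and Tll2 had 0 counts.

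Fibril regulators spanned a wide range, at a median of 2.21 TPM with 7 of 13 detected. For this list and those that follow, the share detected over all protein-coding genes was 59.0%. The matricellular protein Sparc stood at 704 TPM in replicate 1 and 595 in replicate 2, fibronectin Fn1 at 121 and 94.8 TPM, and the small proteoglycans Dcn and Bgn at 81.9 and 83.8 TPM and 68.3 and 48.8 TPM. Kera (0.08 and 0.07 TPM) and Epyc (0.00 and 0.03 TPM) were lowest. Dcn and Lum are also 2 of the 5 stromal markers. Of 10 collagen receptor and uptake genes 6 were detected, led by Itgb1 at 227 and 112 TPM, Ddr1 at 39.7 and 24.3 TPM, Ddr2 at 22.5 and 16.2 TPM and Itga1 at 12.5 and 5.88 TPM, with Itga11 (0.75 and 0.33 TPM) and Gp6 (0.10 and 0.13 TPM) lowest. Among type IV chains, 3 of 6 were detected: Col4a1 at 211 TPM in replicate 1 and 109.6 in replicate 2, Col4a2 at 64.7 and 33.8 TPM and Col4a5 at 16.7 and 12.3 TPM. Col4a6 had 1.07 and 0.98 TPM, Col4a3 0.98 and 0.51 TPM and Col4a4 0.79 and 0.40 TPM. The type IV chains summed to 295 and 158 TPM, beside 1398 and 971 TPM for the 38 other collagens.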

How the data were processed

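Reads were quantified against mm10, and per the file headers and labels each library has a gene and a transcript table. No source used here names the aligner, quantifier or strand setting. The deposited expected counts are estimated reads per feature, not all whole. The deposited TPM is scaled for length to a fixed sum, and the deposited posterior mean TPM is its alternative estimate. The deposited FPKM is scaled for length and depth. The deposited TPM credibility bounds, a signal on the TPM scale, were not used. The deposited isoform percent is a transcript's share of its gene's TPM.

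Symbols, exons and coding sequences came from GENCODE M21 on GRCm38, a later release than that of the tables; 3 of 183 member transcripts found no match, and some lengths differ. Coding sequences were translated because no protein table was used here. Representative transcripts were the most abundant complete one for members and the longest coding one for other genes. Overlapping and antisense genes cannot be told apart from members where they share bases.

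With 2 samples of 1 group nothing was tested; values are descriptions, and the spread is between 2 labelled replicates that share 1 donor label, which may be partly technical. Detection was 1 TPM in both libraries. The members and lists were chosen with earlier results of these data known. Every member is named; of each companion list the 4 highest and 2 lowest are. The size rule and length-bin medians were checked on simulated data. Alternatives used TMM factors from edgeR 4.0.16 (R 4.3.3) on counts rounded to whole numbers; other work used Python 3.11.15 and pandas 2.3.3.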

Additional observations from a re-analysis of the deposited data

How the results depend on the processing

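The count of detected members was 26, and 23 to 35 under other floors or units. The summed level was 1185 TPM, 834 as FPKM and 971 to 1398 in single libraries. Rescaled without spike-ins, mitochondrial and haemoglobin genes, which the deposited TPM includes, it was 1389 TPM. The fibrillar share was 76.4%, 75.8% by posterior mean TPM, 79.6% by counts and 78.2% over complete coding transcripts, an alternative chosen after seeing the data. By counts and over complete transcripts, Col1a1 to Col1a2 was 1.62 and 1.48 beside 1.43, and Col3a1 to Col1a1 was 1.09 and 1.07 beside 1.75. Col5a1 to Col5a2 was 2.45 by counts beside 1.90, and Col6a3 to Col6a1 was 0.260 over complete transcripts beside 0.878. The members' median library ratio of 0.38 reversed to -0.14 less the length bin, while it was 0.22 with TMM. The 1 member apart between libraries became 7 at 1.5-fold, beside 27.1% of genes, and 0 less the length bin, beside 2.29%. The median share on transcripts of protein-coding type was 95.6%, 87.0% by posterior mean and 98.5% by counts. The median share of protein in Gly-X-Y runs was 54.8% with runs of 10 triplets or more, beside 59.6%. Of 38 member levels, 15 moved by more than 1 SD over complete transcripts and 8 by posterior mean TPM. With 2 libraries, each single value lies within 1 SD of the mean by construction. Members under 100 counts rest on few reads.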
